A study of Arabidopsis thaliana with 4 samples.

Results

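The genes described here are Arabidopsis thaliana genes whose symbol in the annotation is a locus code and whose transcripts read clearly lower after dexamethasone. They were chosen by their measured values: a probe set had to match exactly 1 gene, that gene's symbol had to be a locus code, and the higher dexamethasone array had to lie at least 0.8 log2 units below the lower array without dexamethasone. Of 11933 locus-code probe sets, 82 passed that gap, and 9 genes were left out by name, which left 73 probe sets for 72 genes of 13355 genes with a probe set of their own. All 4 arrays took part in the choice, so the falls below are descriptions and carry no test.

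All plants were Ws-0 seedlings carrying 35S:LEC1-GR, a fusion of the embryo regulator LEC1 with a glucocorticoid receptor domain behind the broadly active 35S promoter. Seedlings were 8 days old and stood for 1 h in liquid sucrose medium, either with 30 µM dexamethasone (2 arrays) or with none (2 arrays), before the shoot apices were cut out. The arrays within a group are biological replicates by the series design. The number of plants behind an array was not stated in the labels, and plants without the fusion that received dexamethasone were not analysed here, so dexamethasone and LEC1-GR activity cannot be told apart. In whole apices, fewer cells of a type and less RNA per cell cannot be told apart either.

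LEC1 is a B subunit of the NF-Y transcription factor, which binds promoters together with A and C subunits and is known for switching on embryo and seed maturation programmes. The receptor domain holds the fusion inactive until dexamethasone releases it. A locus code marks a gene's place on a chromosome and carries no function, so the roles given here are background knowledge of the protein families of these loci and come neither from the deposited values nor from the gene tables. Such a family was stated for 47 of the 72 genes, and the other 25 are given by locus code alone. No sequence is printed, since the tables used here hold none for these genes.

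The 4 arrays had medians between 6.56 and 6.61 on the log2 scale and correlated at 0.983 in the pair without dexamethasone, at 0.992 in the dexamethasone pair and at 0.969 to 0.979 between the groups. A control level was taken in each array as its brightest Bacillus control probe set, 4.68 to 4.86. Of the shoot apex marker genes, 2 of 11 could be identified: YAB3, a leaf polarity gene, read 7.66 to 7.82 in all arrays, and CLV3, the stem cell signal, did not exceed the control level in 3 of 4. Of 4 green tissue markers 2 were identified. LHCB4.1, of the light-harvesting antenna, read 13.28 and 13.35 without dexamethasone and 13.28 and 13.41 with it. PORB, of chlorophyll synthesis, read 12.37 and 11.84 against 11.56 and 10.95, a difference of -0.85 ± 0.28 that did not pass limma (adjusted p = 0.218), and its part in the members' falls was not tested. Of 8 root markers 3 were identified, and their mean level was 8.33 in untreated replicate 2 against 7.13 to 7.40 in the other arrays. PYK10, the main root beta-glucosidase, read 11.57 to 12.28 throughout.

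The differences of the 73 probe sets, dexamethasone minus none, ran from -2.77 to -0.91 log2 units with a median of -1.35, which is 1.87-fold to 6.82-fold with a median of 2.55-fold. A mean fall of at least 2 log2 units was seen in 5 of them, one of at least 1.5 in 26 and one of at least 1 in 64. Over all locus-code probe sets the median difference was -0.013, with quartiles of -0.16 and 0.13. The gap was met by 0.687% of locus-code probe sets in the falling direction and by 1.02% of all 22746 probe sets. The mirrored gap, with both dexamethasone arrays higher, was met by 207 locus-code probe sets, 1.73%. In limma with Benjamini-Hochberg adjustment over all probe sets, 55 of the 73 were called lower, against a background of 0.879% of all probe sets called lower and 1.49% called higher. Nothing is read from that count, because the same contrast chose the members. The calls changed when 1 array was left out, and such fits leave 1 array in a group. The median difference of the members then ran from -1.39, without dexamethasone replicate 1, to -1.27, without dexamethasone replicate 2.

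**Figure D1:**
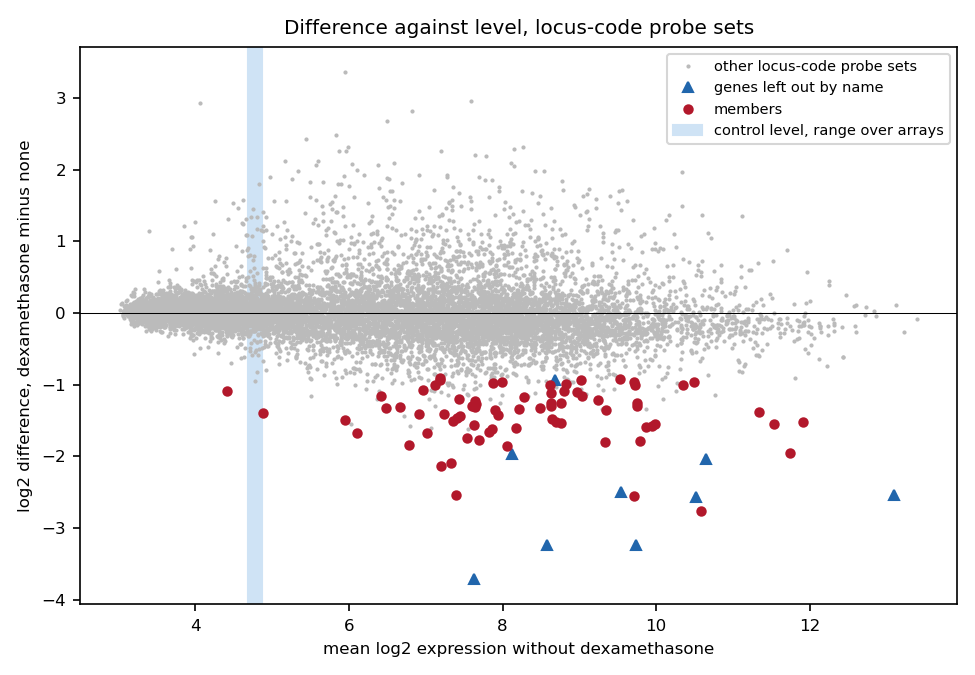
Each point is a locus-code probe set. The x axis is its mean log2 expression in the 2 arrays without dexamethasone, and the y axis is the log2 difference, dexamethasone minus none. Red points are the 73 members, blue triangles the genes left out by name, grey points all others, and the blue band is the control level over the 4 arrays (4.68 to 4.86). The members spread from 4.42 to 11.92 on the x axis, with 1 of them left of the band and 1 just right of it.

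The members were mostly well expressed before the fall. Their mean level without dexamethasone had a median of 8.17, against 5.97 over all locus-code probe sets, 7 of them stood above 10 and 10 below 7. A dim probe set has little room to fall, so this difference in level follows in part from the rule. All 4 arrays lay above the control level in 66 of the 73. A dexamethasone array at or below it was found for 7, and both for 4 of these: AT5G02580, AT1G17665, AT3G62950 and AT3G15440. AT3G15440 lay below it in all 4 arrays, at 4.45 and 4.38 without dexamethasone and at 3.29 and 3.37 with it, so its fall carries little information.

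**Figure D2:**
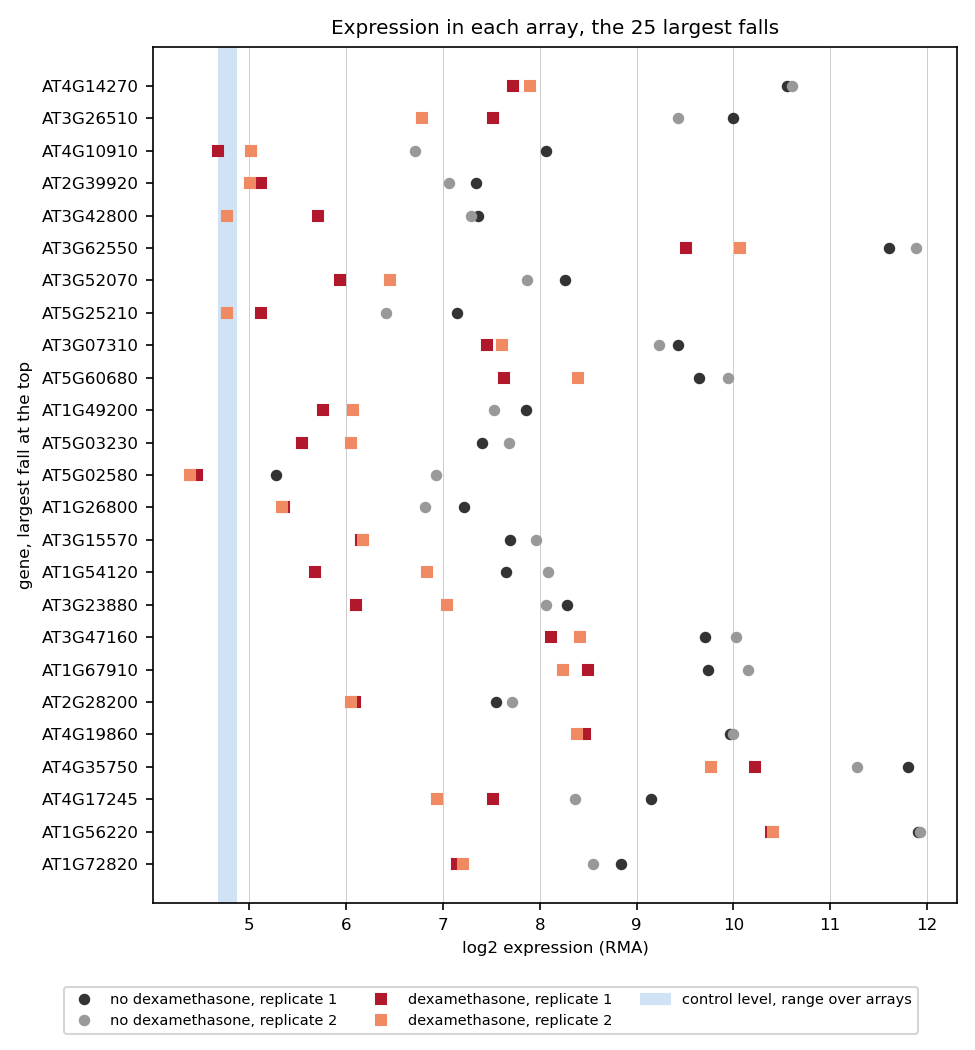
Log2 expression of the 25 members with the largest mean fall, 1 row a gene and 1 point an array. Circles are arrays without dexamethasone, squares arrays with it, and the blue band is the control level over the arrays. In each row both squares lie to the left of both circles, as the rule requires, and AT5G02580 has both squares left of the band.

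The largest fall belonged to AT4G14270, which encodes a small protein with a PAM2 motif, a short stretch that can bind poly(A)-binding protein. It read 10.56 and 10.60 without dexamethasone and 7.73 and 7.89 with it, a difference of -2.77 ± 0.13 (limma standard error, 4 arrays) or 6.82-fold. Both groups were tight, and the gap between them, 2.66, was the widest of all members. The other RNA-related member, AT4G26600, encodes an RNA methyltransferase of the NOP2 family, which modifies ribosomal RNA. It read 7.07 and 6.76 without dexamethasone and 5.66 and 5.37 with it, 2.65-fold lower.

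Genes of the ubiquitin ligase type formed a group of 7, of which 5 were among the 25 largest falls. The share of such genes among all locus-code genes was not counted, nor that of any other group below. Nothing is therefore read from the group sizes. The 25 largest falls are drawn from 73 probe sets, and the groups were formed with the falls known. Nothing is read from a group's places among the 25 either. RING-finger and F-box proteins choose the proteins that receive ubiquitin, which marks them for breakdown. The RING-H2 gene AT1G49200 read 7.86 and 7.53 without dexamethasone and 5.76 and 6.07 with it, 3.43-fold lower. AT1G26800, a RING-type ubiquitin ligase gene, read 7.22 and 6.82 without it and 5.36 and 5.33 with it, 3.18-fold lower. Both genes came down from a moderate level towards the control level. AT3G47160 stood higher, at 9.71 and 10.03 against 8.12 and 8.42, and fell 3.03-fold. AT4G17245 read 9.15 and 8.37 against 7.52 and 6.93, and its arrays differed within both groups. The F-box gene AT3G23880 read 8.28 and 8.06 against 6.10 and 7.04, so that most of its spread lay between the dexamethasone arrays. The F-box gene AT4G10925 fell from 8.49 ± 0.15 to 7.17 ± 0.06 (SD, n = 2 per group) and the RING gene AT4G13100 from 6.96 ± 0.04 to 5.89 ± 0.24, the smallest fall of the 7. The differences of the group ran from -1.78 to -1.07, with a median of -1.60.

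Dormancy- and senescence-associated families gave 3 members, and all 3 were among the 25 largest falls. AT1G56220 encodes a dormancy/auxin associated protein, a family known for high transcript levels in dormant buds. It was the brightest member, at 11.90 and 11.93 without dexamethasone and 10.39 and 10.40 with it, 2.87-fold lower, and its arrays lay within 0.03 of each other in each group. AT5G60680 and AT5G03230 encode DUF584 proteins, the family of the senescence regulator S40 of barley. AT5G60680 read 9.64 and 9.94 against 7.63 and 8.40, 3.44-fold lower. AT5G03230 read 7.40 and 7.68 against 5.55 and 6.05, 3.34-fold lower. In both DUF584 genes the order of the arrays was the same, with replicate 2 above replicate 1 in each group.

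Transcription and light-response genes were 5 of the members. AT3G15570 encodes a protein of the NPH3 family, whose founding member acts in phototropism. It read 7.69 and 7.97 without dexamethasone and 6.15 and 6.18 with it, 3.17-fold lower. The C2H2 zinc finger gene AT2G28200 read 7.55 and 7.71 against 6.09 and 6.05, 2.95-fold lower. Both had nearly equal dexamethasone arrays. AT2G16365, whose product binds phytochrome and restrains hypocotyl growth, read 7.07 and 7.40 against 5.87 and 5.79, 2.65-fold lower. AT5G47390 is listed in the gene table with the synonyms KUA1 and MYBH, a MYB-related factor that promotes cell expansion in leaves and hypocotyl elongation. Its values were 8.89 and 8.38 against 7.53 and 7.22, 2.40-fold lower. AT5G63480 encodes a subunit of Mediator, the complex that links transcription factors to RNA polymerase, and had the smallest fall of all members, 7.17 and 7.20 against 6.22 and 6.34.

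The group of lipid hydrolases and lipid transfer proteins held 7 probe sets for 6 genes. For AT1G80280 and AT5G16120 only the alpha/beta hydrolase family was given, so that they act on lipids is not established here. AT4G19860, a phospholipase gene of the lecithin:cholesterol acyltransferase family, read 9.97 and 9.99 without dexamethasone and 8.47 and 8.38 with it, 2.93-fold lower. AT4G35750, of the SEC14 type that transfers phospholipids between membranes in yeast, read 11.81 and 11.27 against 10.22 and 9.77, 2.92-fold lower. The alpha/beta hydrolase genes AT5G18630, AT1G80280 and AT5G16120 fell 2.70-fold, 2.55-fold and 1.98-fold. AT4G17140 encodes a very large VPS13-type protein, a family of bridges for lipids between membranes, and is the only gene with more than 1 probe set past the gap. These read 9.60 and 9.81 against 8.68 and 8.80, and 7.17 and 7.19 against 6.20 and 6.28, so that the levels differed and the falls were alike, 1.96-fold and 1.92-fold. The remaining probe set of this gene stood near the control level, at 4.83 and 4.96 against 4.63 and 4.68, and did not meet the gap.

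Signalling and interaction-domain genes were 5. AT3G26510 encodes a protein with a PB1 domain, which pairs with other PB1 domains, and came next after AT4G14270 in the size of its fall. Its arrays read 9.99 and 9.43 without dexamethasone and 7.52 and 6.79 with it, a difference of -2.56 ± 0.31 (limma standard error, 4 arrays) or 5.88-fold. The tetratricopeptide repeat gene AT4G32340, one of the brightest members, fell from 11.34 ± 0.31 to 9.96 ± 0.29 (SD, n = 2 per group). The leucine-rich repeat genes AT1G15740 and AT3G20820 fell from 9.35 ± 0.15 to 7.99 ± 0.05 and from 10.50 ± 0.09 to 9.54 ± 0.12, and the protein kinase gene AT4G01330 from 8.63 ± 0.25 to 7.33 ± 0.11.

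Other enzymes and stress proteins were 5. AT2G39920, an acid phosphatase gene of the HAD type, read 7.34 and 7.06 without dexamethasone and 5.12 and 5.01 with it, 4.39-fold lower. AT3G62550 encodes a universal stress protein, a family that binds nucleotides, and read 11.60 and 11.89 against 9.51 and 10.06, 3.88-fold lower. The phosphatase gene came down to just above the control level, while the stress protein gene kept a high level in every array. The DNA glycosylase gene AT5G44680 read 10.14 and 9.36 against 8.51 and 8.40, with nearly all of its spread in the arrays without dexamethasone. AT5G39410, related to saccharopine dehydrogenase, an enzyme of lysine breakdown, fell from 8.96 ± 0.02 to 7.86 ± 0.26. The CC-type glutaredoxin gene AT3G62950 stood close to the control level before the fall, at 5.08 and 4.69, and at 3.42 and 3.54 with dexamethasone. With values at or below the control level set to it, the 2.64-fold difference of AT3G62950 came down to at least 1.16-fold.

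Among proteases and chaperones, AT3G04550, a gene for a Rubisco accumulation factor that helps assemble the carbon-fixing enzyme, read 9.68 and 9.81 against 8.49 and 8.49, with the closest dexamethasone pair of all members. The cyclophilin gene AT2G21130 fell 2.38-fold, the subtilase gene AT5G45650 2.24-fold and the aspartyl protease gene AT4G33490 1.90-fold. None of these 4 was among the 25 largest falls. Of the 4 membrane proteins and carriers, AT1G72820, a mitochondrial carrier gene, read 8.84 and 8.55 against 7.14 and 7.21, and the remorin gene AT4G36970, for a plasma-membrane scaffold protein, read 8.73 and 8.55 against 7.17 and 7.14. The major facilitator gene AT4G34950 fell 2.01-fold and the PLAC8 gene AT1G11380 1.97-fold. Sugar, glycan and wall enzymes were 3, with AT3G47800 (galactose mutarotase type, which interconverts sugar forms) falling 2.48-fold, the glycosyltransferase gene AT5G14550 2.40-fold and the pectin lyase-like gene AT3G06770 2.18-fold. The DUF760 gene AT3G07310 read 9.43 and 9.23 against 7.45 and 7.61, 3.48-fold lower, while the DUF868 gene AT2G25200 fell 2.51-fold and the DUF547 gene AT4G37080 2.29-fold.

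**Figure D3:**
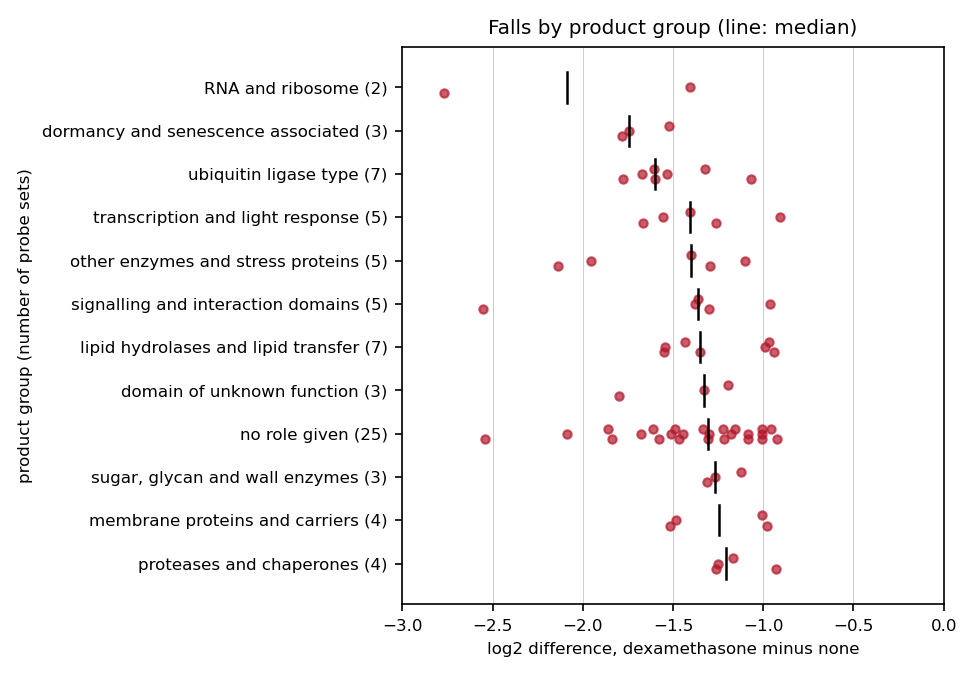
Each point is 1 member probe set, placed by its log2 difference, dexamethasone minus none, in the row of its product group, and the black line is the median of the row. The number of probe sets is in brackets, and the small vertical offsets only separate points. The group medians lie between -2.09 for the 2 RNA and ribosome genes and -1.21 for the 4 proteases and chaperones. Many rows overlap, but not all. The smallest RNA and ribosome fall is -1.40, and the largest fall of the proteases and chaperones is -1.26. These 2 small rows have the extreme medians, and the groups were formed with the falls known. Nothing is read from their separation.

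The 25 genes with no role given covered nearly the whole range of falls, from -2.54 to -0.92 with a median of -1.31, and 7 of them were among the 25 largest. AT4G10910 read 8.07 and 6.71 without dexamethasone and 4.68 and 5.01 with it. Its difference of -2.54 became -3.22 when untreated replicate 2 was left out and -1.86 when untreated replicate 1 was. AT3G42800 read 7.36 and 7.29 against 5.70 and 4.77. AT3G52070 read 8.26 and 7.86 against 5.94 and 6.46, 3.64-fold lower. In both the dexamethasone arrays were further apart than the untreated ones. AT5G25210 read 7.15 and 6.41 against 5.12 and 4.77, and AT1G67910 read 9.74 and 10.15 against 8.50 and 8.24, 2.98-fold lower. AT1G54120 read 7.65 and 8.09 against 5.68 and 6.83, the widest dexamethasone pair of all members.

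AT5G02580 was the member that most depended on 1 array. It read 5.28 and 6.93 without dexamethasone and 4.46 and 4.38 with it, and its difference of -1.68 became -0.86 when untreated replicate 2 was left out and -2.50 when untreated replicate 1 was. With its dexamethasone arrays set to the control level, the group means differed by at least 2.53-fold, a value that includes untreated replicate 2. AT3G49790 also stood higher in untreated replicate 2, at 6.88 and 7.83 against 6.01 and 5.68. That array was also the one with the highest root marker levels. The root hair expansin genes EXPA7 and EXPA18 read 6.25 and 6.46 there and 4.59 to 5.20 in the other 3 arrays, and the part of root tissue in the values of AT5G02580 and AT3G49790 was not tested. Over the members as a whole, untreated replicate 2 lay above replicate 1 in 33 probe sets and below it in 40. The gap is measured from the lower untreated array, so the rule keeps out probe sets high in replicate 2 alone. These counts therefore say nothing on root tissue in that array.

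The other 17 genes with no role given fell 1.90-fold to 2.81-fold. AT1G17665 led them, at 5.86 and 6.04 against 4.31 and 4.61, which is at least 2.28-fold when values at or below the control level are set to it. AT1G75190 followed at 7.46 and 7.36 against 5.91 and 5.97, and AT2G38465 at 7.21 and 7.67 against 6.17 and 5.82. AT1G53035, AT1G36940 and AT2G35470 fell 2.53-fold, 2.47-fold and 2.47-fold. AT1G67050, AT2G46550, AT1G53450 and AT2G25730 fell 2.34-fold, 2.32-fold, 2.27-fold and 2.23-fold. AT1G71970, AT5G25280, AT1G27290 and AT1G01770 fell 2.12-fold, 2.01-fold, 2.01-fold and 2.01-fold, and AT1G70100 and AT1G60010 1.94-fold and 1.90-fold. The dimmest of the 17 was AT3G15440, described above, and the brightest was AT1G27290, at 10.41 and 10.28 against 9.34 and 9.33.

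The spread within groups was small beside the falls, which the rule in part ensures. The SD of the 2 arrays had a median of 0.19 without dexamethasone and 0.12 with it, against 0.12 and 0.10 over all locus-code probe sets. The untreated arrays lay over 0.5 apart for 11 members and the dexamethasone arrays for 9, and for 20 members neither pair was over 0.2 apart. AT3G04550, AT5G25280, AT1G27290 and AT1G70100 had the closest dexamethasone pairs, each with an SD of at most 0.0085.

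**Figure D4:**
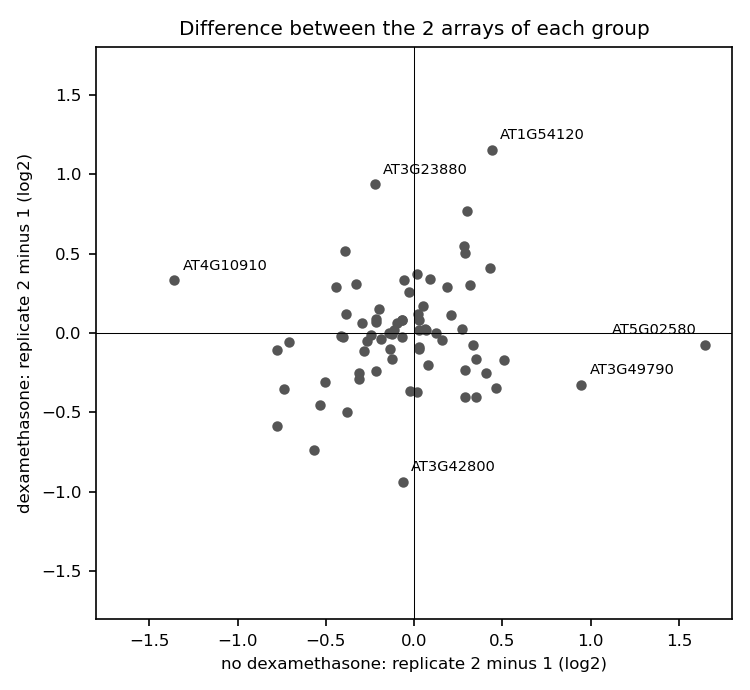
Each point is 1 member probe set. The x axis is replicate 2 minus replicate 1 without dexamethasone and the y axis the same with dexamethasone, both in log2 units. Most points lie within 0.5 of zero on both axes, and the labelled genes, AT5G02580 and AT4G10910 among them, have a pair of arrays over 0.8 apart.

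At the edge of the rule, the 3 members with the smallest gap were AT4G17140 (0.809), AT2G21130 (0.811) and AT1G01770 (0.811). The 3 locus-code probe sets just outside were those of AT3G51400 (0.799), AT3G62860 (0.799) and AT5G66590 (0.797), with mean differences of -1.04, -0.94 and -0.83. The threshold thus divides genes with nearly the same values. The 9 genes left out by name had differences of -3.71 to -0.94, and 8 of them fell by at least 1.96.

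The member genes lay on all 5 chromosomes, with 20, 9, 15, 15 and 13 genes on chromosomes 1 to 5, which is 0.467% to 0.884% of the locus-code genes measured there. Some were near neighbours in the reference gene order. AT4G10910 and the F-box gene AT4G10925 are separated by 1 gene, with differences of -2.54 and -1.32. AT3G15440 directly neighbours AT3G15450, one of the genes left out by name, which read 13.10 without dexamethasone and 10.55 with it. The reference order is that of the Columbia accession, and no coordinates are printed because the values name no genome build.

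For comparison, 3 lists of genes of known pathways were looked up. None holds a member, which the rule largely fixes, since a member's symbol must be a locus code. The lists were chosen with earlier results of these data known. Their calls and median differences are therefore descriptions and no independent support. Genes of the lists could be identified only where a probe set matched them alone, and 8730 probe sets are unnamed here. Of 24 genes raised by carbon starvation or darkness, 6 were identified and 2 were called lower in limma with Benjamini-Hochberg adjustment, with none called higher. AKINBETA1, a regulatory subunit of the energy-sensing kinase SnRK1, read 10.04 and 9.97 without dexamethasone and 8.66 and 8.15 with it (difference -1.60 ± 0.20, limma adjusted p = 0.0372). ATG8E, which coats autophagosomes, read 9.48 and 9.62 against 8.28 and 8.31 (-1.26 ± 0.13, limma adjusted p = 0.0299). The call of AKINBETA1 ended without untreated replicate 2 (-1.64, limma adjusted p = 0.0528). MCCA, MCCB and IVD, of leucine breakdown, stood at -0.74, -0.39 and -0.24 and PPDK, of pyruvate metabolism, at 0.22, none past the test. The list's median difference was -0.57, against -0.017 over all probe sets.

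Of 17 clock and clock output genes 2 were identified, and COR27, a cold- and clock-regulated gene, was called lower (8.59 and 8.92 against 4.81 and 4.80, limma adjusted p = 0.0173), while GI stood at -0.29 ± 0.13. Of 11 shade and elongation growth genes 3 were identified and 2 were called lower. These were IAA29, an auxin response repressor gene, at -1.78 ± 0.15 (limma adjusted p = 0.0231) and EXPA8, a wall-loosening expansin gene, at -2.38 ± 0.17 (limma adjusted p = 0.0228). HAT2, a homeobox gene of auxin and shade responses, stood at -0.72 ± 0.25. Without either dexamethasone array, none of these 5 calls passed in limma (adjusted p = 0.206 to 0.235), though the differences stayed between -3.96 and -1.24.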

How the data were processed

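The authors deposited log2 expression values, 1 for each probe set in each array, made with RMA and the affy package per the submitters' processing notes; versions and filters were not stated there. RMA gives arrays a common distribution, which hides a shift of all transcripts. From 22810 probe sets the 64 controls were removed. Probe sets were named through the platform annotation and current symbols: 13513 matched 1 gene, 503 several and 8730 are unnamed here. Groups and replicate numbers come from the titles.

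limma 3.58.1 in R 4.3.3 (lmFit, eBayes, two-sided, Benjamini-Hochberg over 22746 probe sets, adjusted p threshold 0.05) compared the groups with no block; the prior degrees of freedom were 3.09. It was tested on simulated data. Folds are 2 to the power of the log2 difference. List genes with several probe sets are given by the brightest. Arrays give no read depth, and 2 per group limit the precision.

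Members, lists and product groups were chosen with earlier results of these data known. Genes were named by rule: the 25 largest falls with all array values, others by product group, 3 on each side of the threshold, and called list genes. Product groups rest on background knowledge. The control level, the brightest of 27 Bacillus control probe sets in each array, serves as a floor where a fold is given as at least a value. The planned promoter motif count was not run, as no sequence was used here. Alternatives were a replicate block, other scalings, filters, eBayes options and gaps, and leaving out each array.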

Additional observations from a re-analysis of the deposited data

How the results depend on the processing

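With the gap set to 0.6 or 1.0 the rule gave 178 or 42 probe sets instead of 73, and leaving out 1 array, which makes the gap easier to meet, gave 114 to 228, with the 73 among them each time. Quantile normalization once more gave 73 (69 shared), median centring 72 (68 shared) and the brighter 50% of probe sets 58. The median difference of the members stayed between -1.39 and -1.27 in every setting run. No member changed sign, which the gap of 0.8 fixes in advance when 1 array is left out. For 3 members the control-level floor moved the difference by over 1 SD. With a replicate block limma called 300 lower and 559 higher, against 200 and 339, and 69 of the 73 members against 55. With only 2 pairs, whose deviations correlated at 0.227 across probe sets, same-numbered arrays were not taken as paired. Leaving out 1 array gave 0 to 458 lower and 0 to 734 higher; without dexamethasone replicate 1 or 2 limma called 0, with 1240 and 1005 lower and 1432 and 1443 higher at an unadjusted p below 0.05, and the cause was not tested. Called genes of the lists then ranged from 0 to 2 (carbon starvation), 0 to 1 (clock) and 0 to 2 (shade). In these fits the lone array is assumed to vary like the other group. Signal near background limits the dim members.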

Other observations

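Besides the members, 47 locus-code probe sets fell by at least 1 log2 unit in the mean but missed the gap, and in 9 of these the groups overlapped. The list was drawn after the values were seen and has no test. The 5 largest falls among them, AT4G26010, AT5G04960, AT3G49960, AT3G25930 and AT1G19960, rested on untreated replicate 2 in each case. AT4G26010, a peroxidase gene, read 5.90 and 9.19 without dexamethasone and 5.22 and 6.62 with it. AT3G49960, another peroxidase gene, read 5.23 and 8.37 against 4.94 and 5.51, and the peroxidase gene AT1G30870 read 5.99 and 8.24 against 5.47 and 6.17. In all 3 the first untreated array lay within the range of the dexamethasone arrays. The root markers EXPA7 and EXPA18 were also highest in that array (6.25 and 6.46), and their part in these values was not tested.

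Other genes came close to the rule. AT5G16030 read 9.93 and 10.25 against 8.61 and 9.15, AT4G28780 7.48 and 6.92 against 6.14 and 6.07, and AT1G21680 10.60 and 10.93 against 9.39 and 9.84, with gaps of 0.77, 0.78 and 0.76. AT3G05150 read 9.06 and 8.97 against 8.87 and 7.05, so its mean difference of -1.06 rested on dexamethasone replicate 2.

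The falling gap of 0.8 was met by 232 probe sets in all. Of these 124 are unnamed here, 3 match several genes, 23 match 1 gene with a proper symbol and 82 match 1 locus-code gene. Most probe sets with such a fall are therefore not described by name.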
